A study of Mus musculus with 8 samples.

Results

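Of 18846 genes measured in 8 mouse adrenal libraries, 337 (1.79%) were high in 1 library and nearly absent from, or far lower in, the other 7. They were chosen by their measured values: a gene entered when it reached 20 CPM in 1 library and at least 8 times the highest CPM of the other 7. A gene's CPM is its estimated read count times 1000000 over the library total. Under this rule the 337 genes came from 3 libraries. Of these, 212 belonged to the library of the ACTH-treated wild-type animal labelled female, 112 to that of the untreated wild-type animal labelled male, and 13 to that of the ACTH-treated Siah1a-/- animal labelled male, while the other 5 libraries had 0. From the genes they hold, these are called below the liver-gene library, the kidney-gene library and the nerve-gene library. The names refer to the genes, not to how their transcripts came to be there, which was not tested.

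The libraries were made from adrenal gland tissue of 129SVEV mice, 1 library for each combination of genotype (wild type or Siah1a-/-, lacking an E3 ubiquitin ligase), treatment and labelled sex. ACTH, the pituitary hormone that drives glucocorticoid synthesis, was injected intraperitoneally at 100 µg/kg 1 hour before harvest, and the other animals were not injected. That gives 4 groups of 2 animals, 1 labelled male and 1 labelled female: untreated wild type, ACTH-treated wild type, untreated Siah1a-/- and ACTH-treated Siah1a-/-. The labels give no age, no side of the body and no account of how fat and neighbouring organs were trimmed, and they describe no vehicle injection. Each sample has a number of its own in the labels, taken here as 1 animal, so no value below has a replicate of the same sex and treatment.

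The adrenal gland sits in the fat at the upper pole of the kidney, and on the right side it lies against the liver. Its cortex makes steroids, and its medulla holds chromaffin cells, neural crest derivatives that release catecholamines under the control of preganglionic sympathetic fibres. Sympathetic ganglia and nerve trunks run close to the gland. Kidney tubules are divided into segments, each with its own transporters, and hepatocytes secrete most plasma proteins, so transcripts of both organs are readily recognised.

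Totals ranged from 8020111 estimated counts in the kidney-gene library to 29568950 in the liver-gene library. Between 1433 and 5147 genes had an estimated count under 0.5, taken here as 0, so a 0 in a shallow library is weak evidence of absence: 3 counts correspond to 0.101 CPM in the deepest library and 0.374 CPM in the shallowest. All 8 libraries held the defining genes of the adrenal cortex. Star, which delivers cholesterol to the mitochondrion, ranged from 10600 to 18936 CPM, and none of the 14 cortex genes and none of the 18 chromaffin genes listed was confined to 1 library. The kidney-gene library went against its sex label: Xist, transcribed from the inactive X chromosome, read 411 CPM and the Y-linked Ddx3y 3.24 CPM, against 4.02 to 32.4 and 316 to 370 CPM in the 3 remaining male-labelled libraries. It is therefore written of as labelled male throughout.

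**Figure D1:**
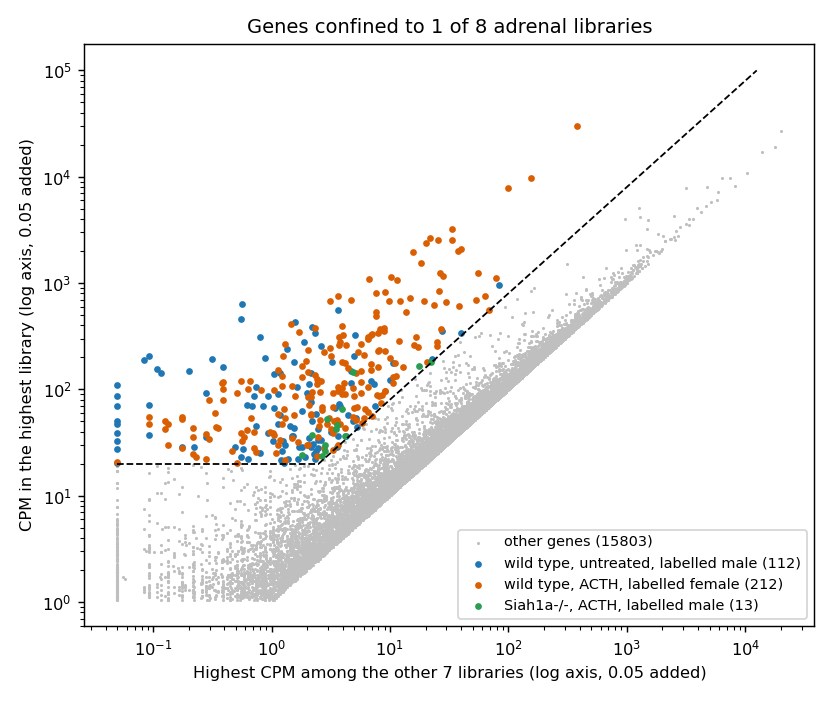
Each point is 1 gene with at least 1 CPM in its highest library, plotted by its highest CPM (vertical, log axis) against the highest CPM among the other 7 libraries (horizontal, log axis); 0.05 was added to both values. The dashed lines are the limits of the rule (20 CPM and 8-fold), and the 337 coloured genes above them come from 3 libraries.

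The limits cut through a continuous scatter of genes, as the plot of highest against next-highest CPM shows. Just inside the 8-fold limit lay Cfb (8.09-fold), Abca6 (8.11-fold) and Stmn2 (8.16-fold). Just outside it lay Ibsp (7.9997-fold, highest in the ACTH-treated Siah1a-/- library labelled female), Nox4 (7.95-fold) and Scn9a (7.92-fold). By level, Cyp2j11 (20.07 CPM), Cyp4f15 (20.19 CPM) and D630023F18Rik (20.32 CPM) were just inside, and Olfr78 (19.37 CPM), Aqp3 (19.33 CPM) and Slc5a1 (19.08 CPM) just outside. Aqp3 and Slc5a1 were highest in the kidney-gene library, where Aqp3, a water channel of the collecting duct, read 0.166 CPM or less elsewhere.

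Genes confined to the same library may share letters near their start sites, which the rule did not use. HNF1 factors, which act in hepatocytes and in kidney tubules, bind a palindrome that reads GTTAAT, then 1 base of any kind, then ATTAAC, the same on both strands. RefSeq promoters of GRCm38.p6 (mm10), 250 bases before to 50 after each start, were searched for it with up to 2 mismatches at the fixed bases. A match was present for 21 of the 168 liver-gene members with a promoter in the table (12.5%), for 14 of 87 kidney-gene members (16.1%) and for 0 of 8 nerve-gene members, against 427 of all 27025 genes (1.58%). The median GC content of these windows was 48.0%, 51.0% and 65.8% for the 3 sets and 52.3% for all genes, and its part in the shares was not tested. A match is a string of letters and was not examined for binding. The 4 promoters below, 2 from each of these 2 sets, are shown as examples with 1 or 2 mismatches. Within each set, named members were taken by fewest mismatches and then by highest CPM, with genes of 1 chromosome left out. They are therefore not a ranking of all named members, and position of the match was not the reason for the choice. All 4 hold the match between 57 and 20 bases before the start. They belong to Alb (serum albumin) and Gc (vitamin D-binding protein) from the liver genes, and to Tmem27 (collectrin, a partner of amino acid transporters) and Acsm2 (an acyl-CoA synthetase) from the kidney genes. The match is in capitals.
Gc, chr5:89457849-89458148, minus strand, 1 mismatch: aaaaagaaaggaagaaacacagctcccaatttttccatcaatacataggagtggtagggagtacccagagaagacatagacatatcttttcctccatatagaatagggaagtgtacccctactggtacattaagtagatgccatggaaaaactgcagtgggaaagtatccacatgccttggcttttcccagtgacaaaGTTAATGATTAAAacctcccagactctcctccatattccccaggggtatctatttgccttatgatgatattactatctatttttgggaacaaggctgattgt
Alb, chr5:90460620-90460919, plus strand, 2 mismatches: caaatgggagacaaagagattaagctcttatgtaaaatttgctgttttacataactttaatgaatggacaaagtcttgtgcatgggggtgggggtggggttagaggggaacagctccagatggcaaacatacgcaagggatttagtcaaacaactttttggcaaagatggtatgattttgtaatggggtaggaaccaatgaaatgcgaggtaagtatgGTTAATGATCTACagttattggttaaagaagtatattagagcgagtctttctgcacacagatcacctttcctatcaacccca
Tmem27, chrX:164089937-164090236, plus strand, 1 mismatch: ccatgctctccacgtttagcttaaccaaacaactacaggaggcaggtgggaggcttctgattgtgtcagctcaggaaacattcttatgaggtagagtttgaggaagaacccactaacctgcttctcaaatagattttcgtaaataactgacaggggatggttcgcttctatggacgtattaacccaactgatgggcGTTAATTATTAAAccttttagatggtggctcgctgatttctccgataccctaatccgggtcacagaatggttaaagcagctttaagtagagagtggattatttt
Acsm2, chr7:119561458-119561757, plus strand, 2 mismatches: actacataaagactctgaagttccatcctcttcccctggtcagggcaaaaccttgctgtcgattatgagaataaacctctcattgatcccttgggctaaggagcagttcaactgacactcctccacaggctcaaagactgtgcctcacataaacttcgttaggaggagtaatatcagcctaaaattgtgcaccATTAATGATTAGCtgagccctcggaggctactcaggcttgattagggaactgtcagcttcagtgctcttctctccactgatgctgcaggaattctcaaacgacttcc

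The liver-gene library gave most of its confined signal to secreted plasma proteins. Its 212 members summed to 110619 CPM, 11.1% of the library, with a median of 107 CPM; 112 of them reached 100 CPM and 19 reached 1000 CPM. The lists held 154 of the 212 as liver genes: 79 secreted proteins, 71 metabolic enzymes and transporters and 4 transcription factors. Alb, Trf (transferrin) and Ahsg (fetuin-A) alone made up 43.2% of the summed CPM of the set. In these bulk samples, fewer cells of a type and less RNA per cell cannot be told apart.

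Values of all 8 libraries are given below in 1 order: wild-type untreated labelled male (the kidney-gene library), then female; wild-type ACTH labelled male, then female (the liver-gene library); Siah1a-/- untreated labelled male, then female; Siah1a-/- ACTH labelled male (the nerve-gene library), then female. In that order Alb, the main protein of plasma, read 380, 134, 78.8, 30155, 48.3, 28.5, 43.8 and 160 CPM. The liver-gene library was 79.4 times the next, which was the kidney-gene library, and every library held some Alb. Trf, which carries iron, read 151, 66.7, 155, 9699, 94.5, 52.2, 68.5 and 91.8 CPM. Ahsg read 99.3, 21.2, 19.4, 7900, 19.4, 8.69, 10.9 and 28.2 CPM. The other ACTH-treated wild-type library, labelled male, lay within the range of the other 3 groups for Alb and Ahsg and just above its top (151 CPM) for Trf. Per transcript length the order changed: Alb led at 12651 RPKM, the deposited level scaled by transcript length, followed by Ahsg at 4530 RPKM, Trf at 3596 RPKM and Apoa1 at 2805 RPKM, in the liver-gene library.

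The secreted proteins covered the usual tasks of hepatocytes. The 79 members of that list summed to 88050 CPM in the liver-gene library and to between 248 and 1277 CPM in the others. Apoa1 and Apob, the scaffolds of high- and low-density lipoprotein, read 3205 and 2631 CPM, against at most 33.5 and 21.6 CPM in any other library. The fibrinogen chains Fga and Fgb read 2545 and 2516 CPM, and the haem scavenger Hpx 2368 CPM. Hc, complement component 5, read 0, 1.66, 0.581, 349, 0, 0, 0 and 1.14 CPM. Unlike Alb, Hc was at 0 in 4 libraries, the kidney-gene library among them. Agt, the precursor of angiotensin and so of the signal that drives aldosterone synthesis, read 24.8, 11.3, 19.3, 280, 19.9, 10.6, 9.79 and 18.5 CPM. Its excess lay in the liver-gene library, and the 7 other libraries, with both genotypes and treatments, lay between 9.79 and 24.8 CPM.

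Enzymes and transporters of liver metabolism formed the next block, 71 members that summed to 15332 CPM in the liver-gene library and to between 88.3 and 374 CPM in the others. Bhmt and Mat1a, of methionine metabolism, read 1251 and 1160 CPM. Cps1, the entry enzyme of the urea cycle, read 1242 CPM, and the drug-metabolising Cyp3a11 1085 CPM. Cyp7a1, the rate-limiting enzyme of bile acid synthesis, read 94.4 CPM, against at most 2.49 CPM elsewhere. Among regulators of hepatocyte genes, Creb3l3 read 68.8, Nr1i3 (the receptor CAR) 23.2 and Foxa3 22.1 CPM, with at most 5.24, 0.182 and 0.228 CPM in any other library.

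Not all members were hepatocyte genes. Clec4f, Marco and Cd5l, markers of resident macrophages of the liver (Kupffer cells) or of tissue macrophages, read 44.4, 35.7 and 47.0 CPM in the liver-gene library and at most 0.533 CPM in any other. Krt18, a keratin of simple epithelia that hepatocytes also make, read 64.8 CPM against at most 6.11 CPM, and Nrn1 (neuritin), from the list of neuronal genes, 114 CPM against at most 10.6 CPM. A pair of genes known for fetal liver was among the members too. H19, an imprinted non-coding RNA, read 19.95, 8.62, 21.6, 1121, 24.9, 19.1, 9.998 and 77.8 CPM. Afp (alpha-fetoprotein) read 119 CPM in the liver-gene library and at most 0.609 CPM elsewhere. Igf2, the imprinted neighbour of H19, followed the same order at 179 CPM against 11.7 to 44.1 CPM, but fell short of 8-fold and is no member. H19 and Igf2 were thus next-highest in the same library, of the ACTH-treated Siah1a-/- animal labelled female.

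Sex-dependent liver genes gave a mixed picture. From the list of genes higher in male mouse liver, 4 of 17 measured were members: Serpina1e (85.4 CPM), Selenbp2 (65.8 CPM), C8b (54.9 CPM) and Cyp2d9 (50.5 CPM). From the list of genes higher in female liver, 5 of 16 were, among them Sult2a1 (329 CPM), Cyp3a16 (92.2 CPM), Cyp3a44 (78.9 CPM) and Sult2a2 (38.4 CPM). Fmo2, Cux2, Cyp4a14, Hao2 and Prlr of that list were each higher in another library. In the liver-gene library Cyp2c69 read 17.2, Cyp2a4 7.71, A1bg 0.744, Cyp3a41a 0.47, Cyp2b13 0.10 and Cyp2b9 0 CPM. The major urinary protein Mup20, abundant in adult male liver, read 1.93 CPM, and Mup3 4.02 CPM. In the same library Xist read 674 CPM, the highest of the 8, while the Y-linked Ddx3y read 11.7 and Eif2s3y 6.26 CPM, above the 0.0761 to 3.50 CPM found where these genes were detected in the other 4 libraries with high Xist. Whether material of more than 1 animal is present was not tested.

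Some liver members are neighbours in the genome. How often genes of other sets of this size lie so close was not computed. Of the 212, 90 lay within 250000 bases of another member of the set, and 15 groups held 3 or more. The largest, at chr12:103616675-103989968 (mm10), held 7 serine protease inhibitor genes (Serpina10, Serpina1b, Serpina1d, Serpina1a, Serpina1c, Serpina1e and Serpina11; 2452 CPM in sum). The fibrinogen genes Fgg, Fga and Fgb lay at chr3:83007724-83049863, and Apoa1, Apoc3, Apoa4 and Apoa5 at chr9:46228630-46271921. Such groups contain near-identical copies, Serpina1, Cyp2c, Cyp3a, Ugt2b and Sult2a genes among them, among which the authors' counting may have divided reads, so the value of a single copy is uncertain.

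**Figure D2:**
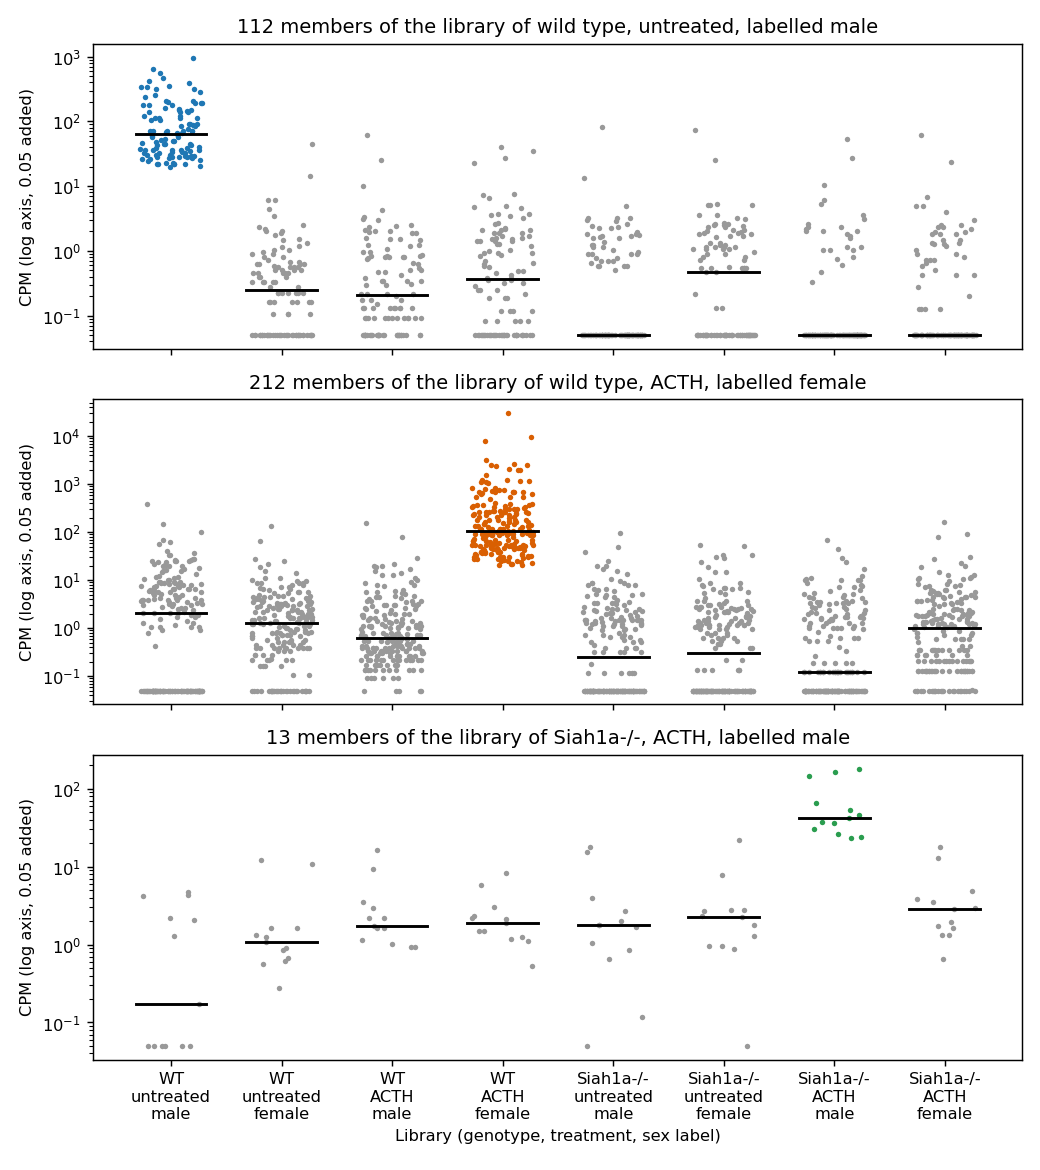
CPM of each member (points; vertical log axis, 0.05 added) in each of the 8 libraries, for the sets of 112, 212 and 13 genes; black lines are medians over the genes, and colour marks the library each set was chosen on. The medians in the chosen libraries are 64.6, 107 and 42.4 CPM, and the grey points of the other libraries lie mostly below 10 CPM.

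The kidney genes covered every part of the nephron. The 112 members of the untreated wild-type library labelled male summed to 12968 CPM, 1.30% of that library, with a median of 64.6 CPM; 39 reached 100 CPM. Kidney lists held 51 of them: 29 proximal tubule genes (of 59 measured), 5 of the thick ascending limb (of 17), 6 of the distal tubule (of 11), 7 of the collecting duct (of 20), 1 of the glomerulus (of 8) and 3 found along the tubule (of 10). In no list were 59. Of all 125 kidney genes measured, 70 were highest in this library among those at 20 CPM or more, of which there were 81. The library was the highest for 2106 of all 9857 genes at that level. The 70 include the 51 members, which are highest here by the rule. Of the proximal tubule genes at 20 CPM that were not members, 11 were highest here, 2 in the liver-gene library and 4 in libraries with no member.

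Proximal tubule genes were the largest of these lists, with 5337 CPM summed over the 29 members, transporters and enzymes alike, against 24.8 to 90.2 CPM in the other libraries. Slc34a1, which reabsorbs phosphate, read 637, 0.514, 0.0830, 0.237, 0, 0.502, 0 and 0 CPM. The library labelled untreated wild-type male stood alone, at 1239 times the next. Slc5a12, a lactate transporter, read 462 CPM and at most 0.502 CPM elsewhere. Lrp2 (megalin), the receptor that takes up filtered proteins, read 390, 0.514, 0.249, 0.981, 0, 0, 0 and 2.13 CPM. Slc22a6, the organic anion transporter OAT1, read 111 CPM and 0 in each of the other 7. Gatm, an enzyme of creatine synthesis that the other libraries also held, read 353 CPM against 13.3 to 27.48 CPM. Kap, an androgen-regulated kidney protein, read 322 CPM, and its next-highest value was 5.02 CPM. Per length Kap was the highest of these, at 449 RPKM against 175 RPKM for Slc34a1, 76.7 RPKM for Slc5a12 and 21.3 RPKM for Lrp2.

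Later segments followed at lower sums. The 5 thick ascending limb members summed to 931 CPM, and to at most 2.96 CPM in any other library. Umod (uromodulin) read 256, 0.0571, 0, 0, 0.725, 2.59, 0 and 0 CPM, and Slc12a1, the furosemide-sensitive transporter, 191 CPM with 1 other library above 0, at 0.0338 CPM. Egf, made in the distal nephron, read 342 CPM and at most 2.28 CPM elsewhere. The distal tubule members summed to 1176 CPM: the calcium-binding Calb1 read 558, 0.171, 0.747, 0.643, 2.57, 3.59, 0.979 and 0.228 CPM, and Slc12a3, the thiazide-sensitive transporter, 204 CPM against at most 0.0415 CPM. The 7 collecting duct members summed to 249 CPM. Among them Hsd11b2, which inactivates corticosterone in aldosterone target cells, read 63.0 CPM, the proton pump subunit Atp6v1b1 of intercalated cells 47.0 CPM, and the water channel Aqp2 28.9 CPM, against at most 1.75, 0 and 1.75 CPM.

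The highest of all 112 was in no kidney list: Ndrg1, a stress-responsive gene, read 959, 44.3, 61.6, 34.7, 82.9, 74.8, 53.5 and 62.3 CPM. Every library held it, and the kidney-gene library was 11.6 times the next. Of the others outside the lists, Dnase1, a secreted nuclease, read 280 CPM, the potassium channel subunit Kcnj15 181 CPM and the proton pump subunit Atp6v0a4 162 CPM. Ugt1a2, at 193 CPM, shares exons with the other Ugt1a genes, and its counts are uncertain. Pvalb, which the distal tubule shares with muscle, read 45.0 CPM, and Krt7, a keratin of ducts and mesothelium, 33.7 CPM. Genes listed as higher in male mouse kidney were divided. Kap, Cyp4b1 (100.5 CPM against at most 42.5 CPM) and Nudt19 (62.1 against at most 52.5 CPM) were highest in this library. Acsm3 and Cyp2e1 were higher in other libraries. Slc7a13, Slco1a1, Cyp7b1, Cyp2j13, Slc22a30 and Ugt2b37 stood at 0 here, in the shallowest library. Cyp4a14, higher in female than in male kidney, read 433 CPM, but it also read 137 CPM in the liver-gene library and is no member.

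**Figure D3:**
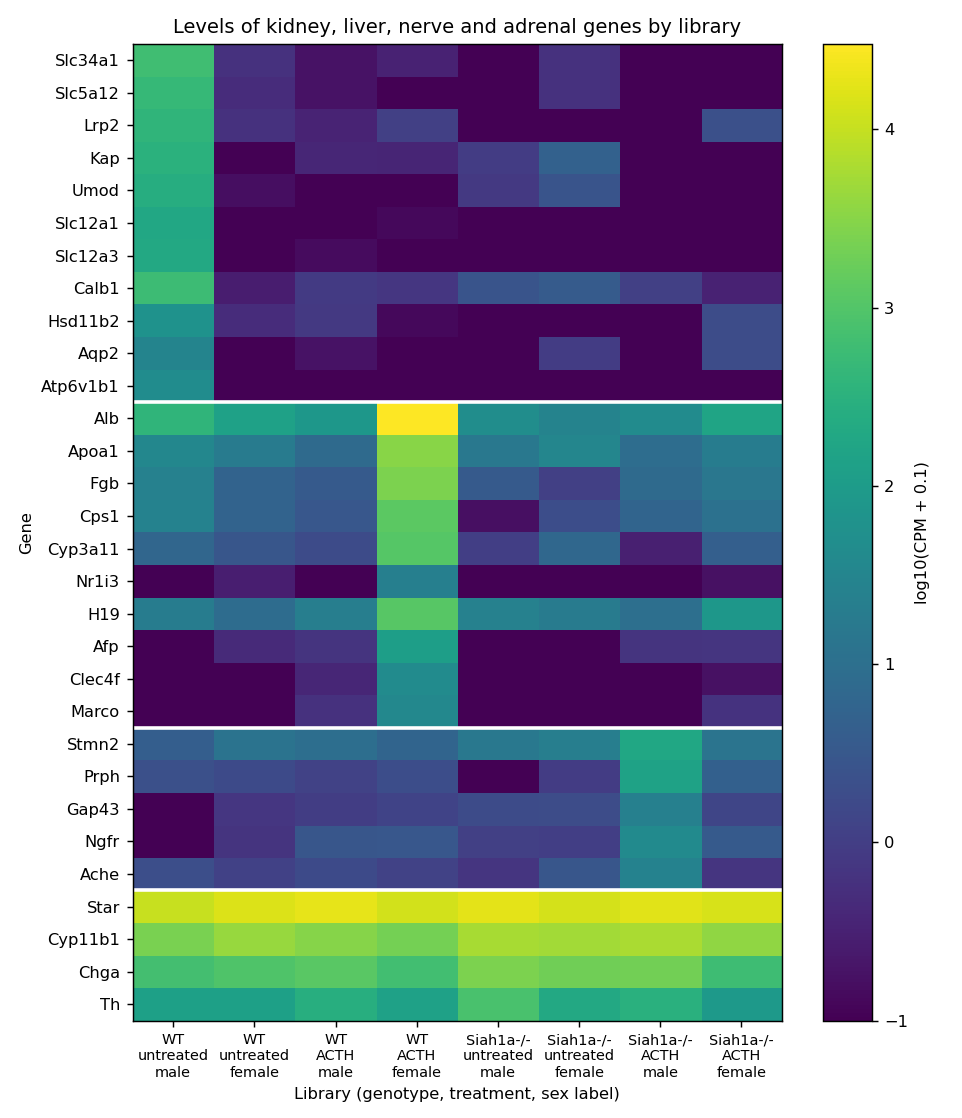
Colour gives log10(CPM + 0.1) for 30 genes (rows) in the 8 libraries (columns, with genotype, treatment and sex label); white lines divide kidney genes, liver genes, nerve genes and 4 adrenal genes. Each of the upper 3 blocks is bright in 1 column, and Star, Cyp11b1, Chga and Th are present in all 8.

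The nerve-gene library, of the ACTH-treated Siah1a-/- animal labelled male, held 13 members with 875 CPM in sum, 0.0875% of the library. They were less sharply confined than the others: their median ratio to the next library was 12.4, against 30.7 for the 94 kidney members and 40.9 for the 200 liver members with more than 3 counts in that library. All 13 were detected in at least 6 of the 7 others. The list of neuronal genes held 5 of them, among which were Stmn2, Prph, Ngfr and Gap43.

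Several members encode proteins of the axonal cytoskeleton. Stmn2, a microtubule regulator of growing axons, read 4.24, 12.2, 9.26, 5.72, 15.2, 22.2, 181 and 12.9 CPM. Prph (peripherin), the intermediate filament of peripheral neurons, read 2.12, 1.598, 1.08, 1.83, 0, 0.836, 144 and 4.79 CPM, the sharpest of the 13 at 30.1 times the next. Tubb2b and Tubb4a, neuronal tubulins, read 65.9 and 37.1 CPM, against at most 3.89 and 2.16 CPM. Gap43, a growth cone protein, read 24.2 CPM against at most 1.76 CPM, and the actin-binding Avil (advillin), found in sensory and sympathetic neurons, 30.2 CPM against at most 2.76 CPM. The ACTH-treated Siah1a-/- library labelled female was next-highest for Prph, so that both treated knockouts lay above the other 6 libraries, but for Stmn2 it lay within their range.

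The remaining members have other roles. Ngfr, the p75 neurotrophin receptor, read 0, 0.571, 2.87, 2.94, 0.988, 0.919, 42.4 and 3.42 CPM. The nerve-gene library stood alone, and the 7 others, with both genotypes and treatments, reached at most 3.42 CPM. Ache, which breaks down acetylcholine, read 26.4 CPM against at most 2.76 CPM, and Cplx1, a regulator of vesicle fusion, 23.4 CPM against at most 2.64 CPM. Ndrg4 read 165 CPM against at most 17.7, the vesicle-transport gene Rab6b 52.7 against at most 2.89, and the potassium channel subunit Kcnu1 36.2 against at most 4.12 CPM.

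Other neuronal genes leaned the same way below the limit. Of 78 neuronal genes measured, 47 reached 20 CPM somewhere, and 36 of those were highest in this library, which was the highest for 1550 of all 9857 genes at that level. The 36 include the 5 members, which are highest here by the rule. Of the neuronal genes at 20 CPM that were not members, 31 were highest here, 1 in the kidney-gene library and 9 in libraries with no member. Uchl1, an abundant neuronal hydrolase, read 204 CPM against 7.48 to 47.1 CPM. Elavl2 read 33.7 CPM, 5.95 times the next, and Scn9a, a sodium channel of sensory and sympathetic neurons, 21.4 CPM, 7.92 times the next. Schwann cell genes did not: 0 of 30 measured were members, 7 reached 20 CPM in any library and 1 of those was highest here. Chromaffin genes were not confined to this library either. Chga read 698, 912, 1218, 654, 2506, 1993, 2083 and 611 CPM and Th 132, 130, 267, 138, 789, 205, 305 and 89.1 CPM, and for both the untreated Siah1a-/- library labelled male was higher than the nerve-gene library. Of the 18 chromaffin genes, however, 9 were highest in the nerve-gene library, 8 in that untreated library and 1 in the untreated Siah1a-/- library labelled female. Ddc, an enzyme of catecholamine synthesis, read 168 CPM in the nerve-gene library and at most 81.9 CPM elsewhere, and the vesicle transporter Slc18a2 171 against at most 117 CPM. The summed level of the 18 was 8229 CPM in the nerve-gene library, 9188 CPM in the untreated Siah1a-/- library labelled male and 2356 to 7501 CPM in the other 6. The part of medulla content in the 13 genes was not tested.

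Genes that kidney and liver share escaped the rule. At 20 CPM or more in both the kidney-gene and the liver-gene library, and at least 8 times the highest of the other 6 in each, stood 54 genes. Only Aadac, Elovl2 and Cyp4a10 of these were members, since they alone also differed 8-fold between the pair. Hnf4a, a transcription factor of hepatocytes and proximal tubule, read 131, 0.685, 0.249, 160, 1.78, 3.51, 1.40 and 3.04 CPM. Fbp1, an enzyme of glucose synthesis, read 279, 2.74, 3.32, 337, 5.01, 1.92, 0.699 and 2.21 CPM. For both, the pair of libraries stood apart from the other 6. G6pc, the last enzyme of glucose release, read 201 CPM in the kidney-gene and 138 CPM in the liver-gene library. Sult1d1, a sulfotransferase, read 601 CPM in the kidney-gene and 93.5 CPM in the liver-gene library. Apart from the 3 members, these genes differed less than 8-fold between both wild-type libraries, which differ in treatment and sex label. Leaving out the kidney-gene library raised the liver-gene members from 212 to 299, and leaving out the liver-gene library raised the kidney-gene members from 112 to 183.

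**Figure D4:**
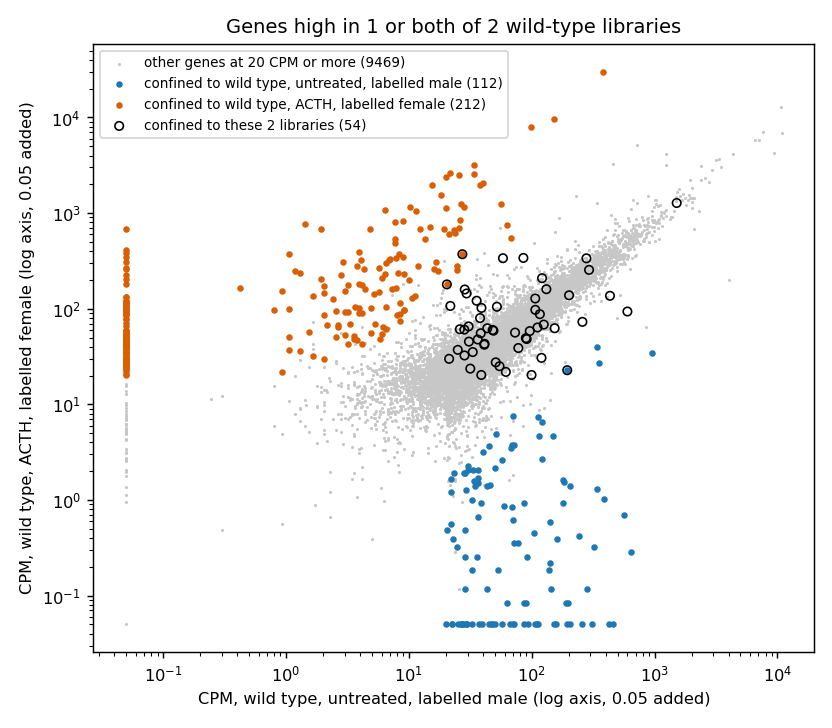
CPM in the liver-gene library (vertical) against CPM in the kidney-gene library (horizontal), both log axes with 0.05 added, for genes at 20 CPM or more in any library. Blue and orange genes are confined to 1 of the pair, and the 54 circled genes are at least 8 times higher in both than in each of the other 6.

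The sets were also measured, at low levels, in the libraries they were not chosen on. The liver members summed to 1904 CPM in the kidney-gene library, 1.72% of their sum in the liver-gene library, and to between 451 and 846 CPM in the other 6. The kidney-gene library was next-highest for 97 of the 212, although 86 of them stood at 0 in it. The kidney members summed to 231 CPM in the liver-gene library, 1.78% of their sum in the kidney-gene library, and to between 121 and 197 CPM in the other 6. Across the 212 liver genes, CPM in the liver-gene library and in each other library had Spearman correlations of 0.44 to 0.72. Across the 112 kidney genes the correlations were 0.07 to 0.23. These correlations run across genes, which are not independent replicates and share the depth of each library, and they are given as a description.

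Several lists of other neighbouring or circulating tissues held 0 members. This holds for the lists of pancreas (21 measured), lymphoid cells (29), myeloid granule genes (16), adipocytes (26), erythroid cells (12), smooth muscle (12), gonad and germ cells (14) and skin (12). The lists of muscle and gut gave 1 each, Pvalb and Apoa4, which the distal tubule and the liver also make, and that of mesothelium 2 of 15 measured, Krt7 in the kidney-gene and Krt18 in the liver-gene library. Of these, 29 of 29 lymphoid, 20 of 21 pancreas and 13 of 14 gonad genes did not reach 20 CPM in any library. A list with 0 members may still be expressed, since the rule finds only genes confined to 1 library. Of 26 adipocyte genes, only 2 stayed under 20 CPM. The adipocyte list summed to between 6507 CPM (nerve-gene library) and 25556 CPM (ACTH-treated wild-type library labelled male). Of 16 myeloid granule genes, 9 stayed under 20 CPM. Of the rest, 6 were highest in the kidney-gene library and 1 in the liver-gene library.

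The position of the 3 libraries in the design bears on the comparisons of genotype and of treatment. Both comparisons use the same 8 libraries, with their sex labels as given, although the kidney-gene library goes against its label. With edgeR's quasi-likelihood test and Benjamini-Hochberg adjustment over 15361 genes, 4 genes (0.026%) passed an adjusted p of 0.05 for genotype. The 3 that were lower in Siah1a-/- (0.0195%) were all members of the liver-gene set: Hc (log2 fold change -8.29, SE 0.395, adjusted p 0.00313), Cyp2c50 (-6.67, SE 0.569, 0.0248) and Azgp1 (-5.97, SE 0.610, 0.0463). For treatment the same 3 genes were the only ones called (3 genes, 0.0195%), as higher after ACTH: Hc by 7.85 (SE 0.394, adjusted p 0.00445), Azgp1 by 6.93 and Cyp2c50 by 6.34 (both adjusted p 0.0252). The rule used values of these libraries, so the calls are given as a description. With the sex label left out of the model, none of the 3 was called in either comparison. By library, Cyp2c50, a liver cytochrome P450, read 0, 1.43, 0.332, 107, 0, 0, 0 and 1.07 CPM, and Azgp1, a secreted lipid-mobilising protein, 0, 2.28, 0.415, 259, 0, 0, 0.0699 and 3.65 CPM. A single library was high for each. Without that library none of the 3 was called, with adjusted p from 0.773 to 0.795 for genotype and of 0.984 for treatment.

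In total 268 of the 337 members passed the filter on low counts, which asked for a minimum level in at least 2 libraries. By the rule each was far higher in 1 library, so direction largely follows from where that library stands. For genotype, 172 of 174 liver members and 80 of 81 kidney members had a log2 fold change below 0 (medians -4.30 and -3.03), and 13 of 13 nerve members above 0 (median 2.19), beside a median of -0.04 over all genes tested. For treatment, 163 of 174 liver members and 13 of 13 nerve members were above 0 (medians 2.33 and 2.32) and 80 of 81 kidney members below 0 (median -2.74), beside 0.02 over all genes. DESeq2 called 932 genes for genotype (6.07%), 78 of them members, and 123 for treatment (0.801%), 25 of them members.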

How the data were processed

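Messenger RNA of 8 mouse adrenal samples was sequenced after TRIzol extraction and DNase I digestion with a directional NEBNext Ultra kit, per the labels' protocols. The submitters' processing notes name Partek 6.6, Bowtie2 2.2.5.0, TopHat2 2.0.13, FastQC 0.11 and the build mm10, with no order. How strand and multiply matching reads were treated is not given there. Per the file headers, the authors deposited estimated counts and RPKM values for each RefSeq transcript (28678 rows). The RPKM values served to compare levels between genes.

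Counts were summed to 18846 gene symbols, and CPM was taken over those sums. The members, the tissue lists (29) and the rule for named genes were chosen with earlier results of these data known. From each library the rule named the 12 most abundant members (all, where there were at most 10), the 3 highest of each list and the 5 highest in no list, genes at the thresholds, called members, sex-dependent and adrenal marker genes, and up to 6 promoters, of which 2 from each of 2 libraries are printed. The other genes named, among them the macrophage and fetal liver genes, the nerve member Cplx1 and the genes shared by kidney and liver, were chosen after their values were seen. Some single genes are not reported here. Symbols turned into dates (24) include 0 members. Positions and promoters are from RefSeq GRCm38.p6 (337 of 337 members located).

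Genes kept by filterByExpr (minimum count 10; 15361 kept, 3485 removed) were tested on rounded counts with edgeR 4.0.16 (R 4.3.3), TMM scaling (factors 0.888 to 1.065), and genotype, treatment and sex label in 1 model (4 residual degrees of freedom). The script was tested on simulated counts. DESeq2 1.42.0, limma-voom (limma 3.58.1), other limits, RLE factors, no filter, no sex label and leaving out libraries or members were alternatives. The labels do not state in words that samples are separate animals, and p-values then measure only the spread between these samples, which may be technical. Counting floors cover counting error only.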

Additional observations from a re-analysis of the deposited data

How the results depend on the processing

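The number of genes confined to 1 library was 449 at a 4-fold and 259 at a 16-fold limit, 403 at 10 CPM and 232 at 50 CPM, 340 with TMM scaling, 349 from RPKM and 368 from single transcripts, and 197 to 343 with each library left out, the lowest without the liver-gene library. The 13 nerve genes became 25 at 4-fold, 4 at 16-fold and 5 at 50 CPM, and the 112 kidney genes 64 at 50 CPM. The 5 libraries with no member gained 2 genes at 4-fold, 4 from RPKM and 5 from single transcripts. For genotype, edgeR called 4 genes as reported, 41 without the filter, 1 without the sex label, 7 without the member genes and 0 to 253 with each library left out. The 253 came without the library of the untreated wild-type animal labelled female, and the 0 (2081 genes at an unadjusted p under 0.05) without the ACTH-treated Siah1a-/- library labelled female. DESeq2 called 932 and limma-voom 108. For treatment, edgeR called 3 as reported, 8 without the filter, 0 without the sex label (1067 at an unadjusted p under 0.05), 0 without the member genes (931), 0 without the kidney-gene and liver-gene libraries (889) and 0 to 23 with each library left out, the 0 without the untreated Siah1a-/- library labelled female (488) and the 23 without the kidney-gene library. DESeq2 called 123 and limma-voom 3, none of them shared with edgeR. Hc, Cyp2c50 and Azgp1 kept their direction in every setting run. Besides the liver-gene library, all 3 lost their call for genotype without the ACTH-treated Siah1a-/- library labelled female (edgeR adjusted p 0.132 to 0.166) and without the sex label (0.182 to 0.236), and for treatment without either untreated female library (wild type 0.144 to 0.313, Siah1a-/- 0.0571 to 0.106) and without the sex label (0.644). For genotype, Azgp1 (0.0791) and Cyp2c50 (0.0615) also lost it without the untreated Siah1a-/- female and Azgp1 (0.0531) without the male, and for treatment Cyp2c50 without the ACTH-treated wild-type male (0.164) and the ACTH-treated Siah1a-/- female (0.234). By limma-voom, all 3 lost their call for genotype (adjusted p 0.0678 to 0.142) and for treatment (0.166 to 0.252), and by DESeq2 Cyp2c50 (0.230) and Hc (0.217) lost it for treatment. The cause of these differences was not tested, apart from the genes and libraries removed by construction. Leaving out 1 library also left 1 group with 1 library, which loosened the filter on low counts. Between 16224 and 16384 genes were then tested, in place of 15361, and 298 to 337 members in place of 268. The 2 changes cannot be told apart in these counts. No paired analysis was possible because the labels give no replicate numbers. Depth limits statements of absence, most in the kidney-gene library.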
